A study of Homo sapiens with 36 samples.

Results

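CDKN1A and 8 other genes that p53 is known to activate were followed in TC32 cells, a human Ewing sarcoma line, after silencing of SUPT6H, SF3B1 or HNRNPH1. The 9 genes were CDKN1A, MDM2, MDM4, SESN1, SESN2, CCNG1, FAS, TP53I3 and RRM2B, taken by symbol, with every one of their 14 probes. Of these probes 11 were detected often enough to be kept, and 8 of the 9 genes were tested among 11437 measured genes. Total RNA of 36 samples was hybridized to Illumina bead arrays 48 h after transfection at 20 nM. Each target was silenced with 3 siRNAs used singly, on 3 arrays each: A1, A3 and Q3 for siSUPT6H, and A2, A3 and Q3 for both siSF3B1 and siHNRNPH1. Control RNA came from cells given the negative control siNeg (6 arrays) and from cells labelled Untreated (3 arrays), which carry the same dose label and were taken as untransfected from the treatment text. siSUPT6H and siSF3B1 were compared with siNeg replicates 1 to 3 (set 1), which came with the Untreated arrays, and siHNRNPH1 with siNeg replicates 4 to 6 (set 2). All groups shared the line, the time and the medium, and the labels do not say whether replicates were separate cultures, so the p-values measure the spread between these arrays.

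p53 is a transcription factor that binds DNA as a tetramer, and each of its sites is made of a pair of half-sites. It is held low by MDM2, a ubiquitin ligase, with its relative MDM4, and p53 in turn raises MDM2, which closes a feedback loop. Among its activated genes, CDKN1A encodes p21, an inhibitor of cyclin-dependent kinases that arrests the cell cycle. SUPT6H is a chaperone of histones that travels with RNA polymerase II, SF3B1 a U2 snRNP protein that takes part in branch point recognition, and HNRNPH1 an RNA-binding protein that regulates splicing.

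The 250 bases before the RefSeq start (GRCh38.p14) are shown for 4 of the genes. CDKN1A, SESN1 and TP53I3 rose with the same targets and SESN2 fell with each of them. Capitals mark a GC box (GGGCGG or its reverse complement), a TATA box (TATAAA) or a p53 half-site, each searched on both strands. The windows lie at chr6:36678464-36678713 on the plus strand for CDKN1A, at chr6:109094847-109095096 on the minus strand for the most upstream start of SESN1, at chr2:24084835-24085084 on the minus strand for TP53I3, and at chr1:28259268-28259517 on the plus strand for SESN2. The last sequence is a stretch of 30 bases around the p53 half-site that lies 49 bases before another listed start of SESN1, at chr6:109009018-109009047 on the minus strand.
CDKN1A: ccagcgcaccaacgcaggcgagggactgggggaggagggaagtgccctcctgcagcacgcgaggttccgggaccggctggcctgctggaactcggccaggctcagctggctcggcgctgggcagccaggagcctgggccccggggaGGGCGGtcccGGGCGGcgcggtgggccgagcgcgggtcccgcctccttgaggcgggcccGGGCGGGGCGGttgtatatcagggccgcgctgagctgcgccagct
SESN1: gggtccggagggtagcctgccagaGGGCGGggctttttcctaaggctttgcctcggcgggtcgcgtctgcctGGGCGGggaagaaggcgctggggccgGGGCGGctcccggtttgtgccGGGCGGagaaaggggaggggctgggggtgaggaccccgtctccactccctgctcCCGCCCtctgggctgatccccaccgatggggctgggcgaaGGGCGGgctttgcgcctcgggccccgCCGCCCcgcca
TP53I3: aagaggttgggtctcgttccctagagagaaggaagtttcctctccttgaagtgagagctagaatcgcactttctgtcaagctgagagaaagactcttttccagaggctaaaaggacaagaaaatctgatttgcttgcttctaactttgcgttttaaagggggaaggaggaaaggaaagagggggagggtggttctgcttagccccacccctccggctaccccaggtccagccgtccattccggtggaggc
SESN2: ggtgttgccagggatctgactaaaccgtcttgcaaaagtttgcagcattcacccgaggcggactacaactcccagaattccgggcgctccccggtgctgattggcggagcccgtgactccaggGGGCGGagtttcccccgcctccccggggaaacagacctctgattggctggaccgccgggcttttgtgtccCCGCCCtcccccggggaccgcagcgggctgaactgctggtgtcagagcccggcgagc
SESN1 half-site: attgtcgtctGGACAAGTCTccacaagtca

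The CDKN1A window held 4 GC boxes, that of SESN1 held 7 and that of SESN2 held 2, while the TP53I3 window held none. GC content was 76.4% for CDKN1A, 74.4% for SESN1, 65.6% for SESN2 and 51.2% for TP53I3. Of 35116 windows of this length in the table, 42.6% held a GC box, 10.7% a TATA box and 5.57% a p53 half-site. No TATA box was found in the windows of the 8 genes with an entry, and RRM2B had no entry. A half-site was found in 1 of the 3 windows of SESN1 and in 1 of the 3 of FAS. A pair of half-sites was in none of these windows, and in 0.0256% of all windows. Only exact matches to the half-site were counted, so a window without one, such as those of MDM2, may still hold a p53 site. CCAAT (32% of all windows) occurred in the SESN2 window, and also in the windows of MDM2 and CCNG1 and in SESN1 windows other than the one shown. TGATGNAA, a form of the motif that ATF4 binds together with a C/EBP factor (3.14% of all windows), occurred in no window of these genes. These matches describe letters only, and the p53 sites known for CDKN1A lie further upstream than its window.

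Each siRNA lowered its own target. SUPT6H was at 29.3% of its control level with siSUPT6H (log2 change -1.77, SE 0.12, limma adjusted p = 1.39e-18), SF3B1 at 40.9% with siSF3B1 and HNRNPH1 at 39.2% with siHNRNPH1, with no overlap between the arrays in each case. SUPT6H was also at 45.4% with siSF3B1 and at 58.4% with siHNRNPH1, and HNRNPH1 was at 66.6% with siSUPT6H (adjusted p = 7.36e-07). All 36 arrays detected 9 of 12 Ewing sarcoma markers (CD99, NKX2-2, STEAP1, LIPI, PRKCB, BCL11B, CCK, KDSR and EWSR1), and none detected GLI1. Of these 12, 11 had a probe and 10 were measured. With siSUPT6H 3 were higher and 2 lower (25.7% and 21.8% of all genes), with siSF3B1 5 and 2 (26.2% and 35.7%), and with siHNRNPH1 1 and 4 (21.6% and 23.5%). The largest changes with siSF3B1 were those of PRKCB (-1.20), CCK (1.05), EWSR1 (-1.04) and FLI1 (0.98). Of 7 epithelial markers, KRT18 was detected on all arrays and KRT19 and CDH1 on none. With siSF3B1, KRT18 was higher (1.12) and ELF3 at least 1.57-fold higher, which made 2 of the 4 measured markers (26.2% of all genes were higher). ELF3 was detected on 2, 7 and 2 of 9 arrays with siSUPT6H, siSF3B1 and siHNRNPH1 and on no siNeg array, so its call is no independent support. The summed intensity of the 4 measured markers was 168 to 242 with siSF3B1 against 110 to 122 with siNeg set 1. It was 116 to 135 with siSUPT6H, and 129 to 164 with siHNRNPH1 against 122 to 139 with siNeg set 2. Of 7 blood cell markers, PTPRC, CD3E, LYZ and HBB were detected on no array. CD79A was called higher with all 3 targets, as were 5.37% of all genes (at least 1.08-fold with siSUPT6H and 1.68-fold with siSF3B1, with no fold for siHNRNPH1). It was detected on 5, 9 and 3 of 9 arrays of these targets and on no siNeg array, so its calls are no independent support. CD14 was higher with siHNRNPH1 (0.60). The summed intensity of CD79A and CD14 was 45.6 to 55.8 with siNeg set 1, 51.3 to 72.7 with siSUPT6H, 63.9 to 96 with siSF3B1, 45.4 to 63.1 with siNeg set 2 and 60.7 to 91.4 with siHNRNPH1. The part of epithelial or blood cells in the results was not tested. Between 13106 and 16788 probes were detected per array, where detection means a p below 0.01 against the array's background. Levels below are log2 normalized intensities, changes are differences of those levels, and a gene was called at an adjusted p below 0.05. A lower level in a sample cannot tell fewer cells expressing a gene from less of its RNA per cell.

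CDKN1A was higher with siSUPT6H and with siHNRNPH1 and lower with siSF3B1. Its level was 8.03, 8.42 and 8.31 on the siNeg arrays of set 1. It was 10.59, 10.57 and 10.66 with siSUPT6H_A1, 10.69, 10.81 and 10.58 with A3, and 10.15, 10.00 and 9.89 with Q3. All 9 siSUPT6H arrays therefore lay above all 3 controls, as they did for 14.7% of all genes. Every single siRNA was called higher, as for 12.4% of genes. The change was 2.18 (SE 0.09, 95% interval 2.00 to 2.36, limma adjusted p = 1.62e-27), or 4.54-fold, and was the 16th highest of 11437 genes.

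With siSF3B1, CDKN1A was at 7.35, 6.91 and 7.11 (A2), 7.96, 7.93 and 7.99 (A3), and 7.57, 7.35 and 7.60 (Q3). All 9 arrays were below the lowest siNeg array, which 25.6% of genes also showed, although the A3 arrays lay only just below it. The change was -0.72 (SE 0.09, 95% interval -0.90 to -0.54, limma adjusted p = 5.22e-10), which left 60.6% of the control level. It was -1.13 with A2, -0.29 with A3 and -0.74 with Q3, each called (24.7% of genes were lower with all 3), and the siRNAs differed from each other (limma F test, adjusted p = 3.47e-07, 13.2% of genes called). When the mean of each siRNA counted as 1 replicate, the adjusted p was 0.134. Against the Untreated arrays, which were at 7.78, 8.01 and 7.87, the change was -0.35 (adjusted p = 0.000518).

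The siNeg arrays of set 2 were at 8.54, 8.99 and 8.94 for CDKN1A. With siHNRNPH1 the level was 10.87, 10.80 and 10.64 (A2), 11.17, 11.31 and 11.22 (A3), and 10.62, 10.42 and 10.57 (Q3), so that no treated array overlapped a control (10.5% of genes had all 9 arrays above). The change was 2.02 (SE 0.09, 95% interval 1.85 to 2.20, limma adjusted p = 2.94e-26), or 4.07-fold, called with every siRNA (9.43% of genes). Between siHNRNPH1 and siSUPT6H the changes differed by -0.16 (95% interval -0.41 to 0.09, adjusted p = 0.366), whereas siSF3B1 minus siSUPT6H was -2.91 (SE 0.06, adjusted p = 1.72e-40).

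**Figure D1:**
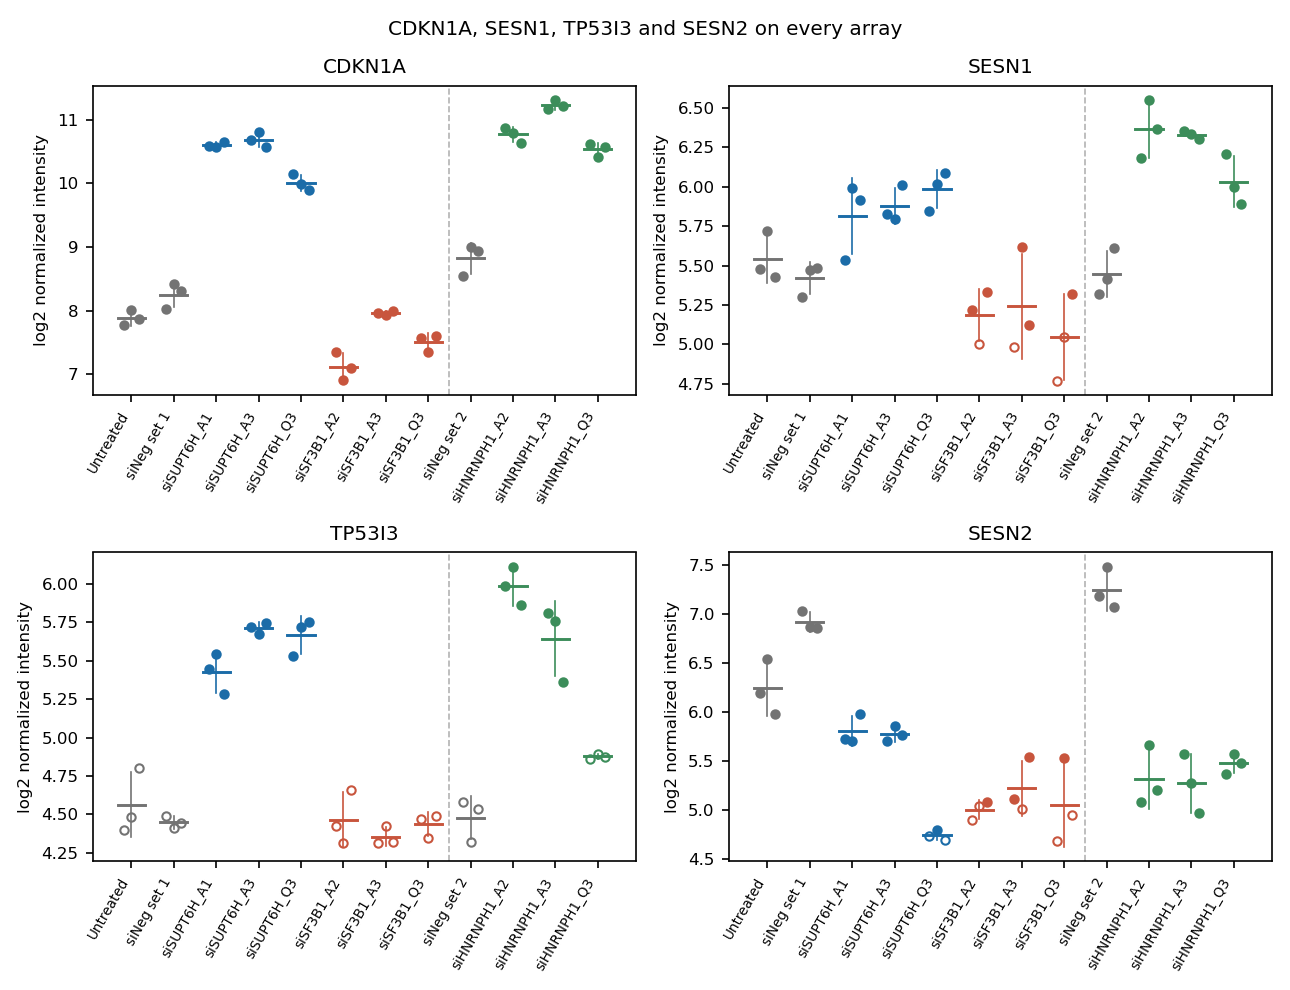
Log2 normalized intensity of CDKN1A, SESN1, TP53I3 and SESN2 on each of the 36 arrays, by group; each point is an array (open where the probe was not detected at p below 0.01), horizontal lines are group means and vertical lines 1 SD (n = 3), and the dashed line separates groups compared with siNeg set 1 from those compared with set 2. CDKN1A arrays with siSUPT6H (9.89 to 10.81) and siHNRNPH1 (10.42 to 11.31) lie above every control array, and those with siSF3B1 (6.91 to 7.99) below every siNeg array.

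In order of its mean level, CDKN1A ran from siSF3B1_A2 (7.12) and siSF3B1_Q3 (7.51) through Untreated (7.88), siSF3B1_A3 (7.96), siNeg set 1 (8.25) and siNeg set 2 (8.82) to siSUPT6H_Q3 (10.01), siHNRNPH1_Q3 (10.54), siSUPT6H_A1 (10.61), siSUPT6H_A3 (10.69), siHNRNPH1_A2 (10.77) and siHNRNPH1_A3 (11.23). Untreated and siSF3B1_A3 overlapped, as did each neighbouring pair from siHNRNPH1_Q3 to siHNRNPH1_A2. The siRNAs of each target were not alike for CDKN1A. Single siRNAs called 41.1%, 43.5% and 43.8% of all genes (siSUPT6H_A1, A3 and Q3), 57.8%, 53.1% and 58% (siSF3B1_A2, A3 and Q3) and 40.9%, 39.6% and 42% (siHNRNPH1_A2, A3 and Q3). Q3 gave the smallest rise of the siSUPT6H siRNAs (1.76 against 2.35 with A1 and 2.44 with A3, F test adjusted p = 1.27e-06, 35% of genes called), and SUPT6H itself was at 45.9% with Q3, 21.6% with A1 and 25.2% with A3. Among siHNRNPH1 siRNAs the rises were 1.95 (A2), 2.41 (A3) and 1.71 (Q3), with an F test adjusted p of 2.47e-06 (41.2% of genes called). HNRNPH1 was at 39.3% with A2, 41% with A3 and 37.4% with Q3.

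CDKN1A also differed among the controls. It was 0.37 higher in siNeg set 1 than in Untreated (SE 0.11, limma adjusted p = 0.0249), where 7.42% of genes were called, and 0.57 higher in siNeg set 2 than in set 1 (adjusted p = 4.13e-05), where 36.4% were called. The choice of control array set therefore bears on the size of each change. A second CDKN1A probe was detected on 3 of 36 arrays, with levels of 4.19 to 5.01, and its changes of 0.27 (siSUPT6H, adjusted p = 0.0707), 0.00 (siSF3B1) and 0.15 (siHNRNPH1) were not called. Averaged over both probes, the changes of CDKN1A were 1.23, -0.36 and 1.09, each still called.

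SESN1, one of the sestrins, stress-responsive proteins that restrain mTORC1, rose with the same targets as CDKN1A by smaller amounts. Its level was 5.30, 5.47 and 5.49 with siNeg set 1. With siSUPT6H it was 5.54, 5.99 and 5.92 (A1), 5.83, 5.80 and 6.01 (A3), and 5.85, 6.02 and 6.09 (Q3), all above the controls (14.7% of all genes). The change was 0.47 (SE 0.13, limma adjusted p = 0.00179), and each siRNA was called, as for 12.4% of genes. With siRNA as a random block, which allows arrays of the same siRNA to be correlated, the adjusted p was 0.164, and with siRNA means as replicates it was 0.153.

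With siHNRNPH1, SESN1 was at 6.18, 6.55 and 6.37 (A2), 6.35, 6.34 and 6.31 (A3), and 6.21, 6.001 and 5.89 (Q3), against 5.32, 5.41 and 5.61 with siNeg set 2. No array overlapped (10.5% of genes had all 9 arrays above), and the change was 0.80 (SE 0.13, adjusted p = 8.37e-07), called with each siRNA (9.43% of genes). With siSF3B1 the levels were 5.22, 5.005 and 5.33 (A2), 4.98, 5.62 and 5.13 (A3), and 4.77, 5.05 and 5.32 (Q3). They overlapped the controls, 5 of 9 arrays detected the probe, and the change of -0.26 (95% interval -0.52 to -0.0039, adjusted p = 0.0726) was not called, although Q3 alone was (-0.37, adjusted p = 0.0385). It was called without siSF3B1_A3 replicate 2 (-0.32, adjusted p = 0.0221) or siSF3B1_Q3 replicate 3 (-0.31, 0.0336).

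TP53I3, a quinone oxidoreductase tied to oxidative stress and cell death, was detected by its main probe only with siSUPT6H and siHNRNPH1. It was not detected on any of the 3 siNeg arrays of set 1, where its level was 4.49, 4.41 and 4.44. With siSUPT6H it was 5.45, 5.55 and 5.28 (A1), 5.72, 5.67 and 5.74 (A3), and 5.53, 5.72 and 5.75 (Q3), and all 9 arrays detected it. Against the lowest detectable signal of the control arrays this was at least 1.68-fold higher (limma adjusted p = 4.86e-12).

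siNeg set 2 gave 4.58, 4.32 and 4.54 for TP53I3, again not detected. The levels were 5.98, 6.11 and 5.86 with siHNRNPH1_A2, 5.81, 5.75 and 5.36 with A3, and 4.86, 4.90 and 4.87 with Q3, which did not detect it on any array. TP53I3 was at least 2.12-fold higher with A2 and at least 1.67-fold higher with A3. For Q3 both sides were undetected, so no fold is given, and the siRNAs differed (F test adjusted p = 3.19e-08). With siRNA means as replicates the siHNRNPH1 call was lost (adjusted p = 0.0722). None of the 9 siSF3B1 arrays detected TP53I3 (levels of 4.31 to 4.66).

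The second TP53I3 probe did not move in the same way. It was detected on 16 of 24 arrays of set 1 and 1 of 12 of set 2, and its changes were -0.09 with siSUPT6H (adjusted p = 0.691), 0.24 with siSF3B1 (0.176) and 0.02 with siHNRNPH1 (0.951). The rise of TP53I3 thus rests on 1 of its 2 probes, and the files annotate these to different transcripts. The main probe passed the detection filter only through siSUPT6H and siHNRNPH1 arrays, where it was high. It stood for the gene by its mean over all arrays, which those arrays raised. With siNeg set 1 and Untreated the second probe was the brighter (5.04 against 4.45, and 4.86 against 4.56). The calls of TP53I3 and its likeness to CDKN1A therefore draw partly on the values that selected its probe.

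SESN2, the other sestrin measured, moved against CDKN1A with siSUPT6H and siHNRNPH1. It was at 7.03, 6.87 and 6.85 with siNeg set 1. With siSUPT6H it was 5.72, 5.71 and 5.98 (A1), 5.70, 5.85 and 5.77 (A3), and 4.74, 4.80 and 4.70 (Q3), and with siSF3B1 it was 4.90, 5.04 and 5.08 (A2), 5.12, 5.01 and 5.54 (A3), and 4.69, 5.53 and 4.96 (Q3). All of these arrays lay below every control, as for 13.3% and 25.6% of all genes. Treated arrays were near background, and 7 of 9 with siSUPT6H and 4 of 9 with siSF3B1 detected the probe. The changes were -1.48 (SE 0.14, limma adjusted p = 8.30e-13) and -1.82 (adjusted p = 2.34e-16).

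For siHNRNPH1 the SESN2 levels were 5.09, 5.66 and 5.21 (A2), 5.58, 5.27 and 4.98 (A3), and 5.37, 5.57 and 5.48 (Q3), against 7.18, 7.48 and 7.07 with siNeg set 2. No array overlapped (11.1% of genes had all 9 arrays below), and the change was -1.89 (SE 0.14, adjusted p = 1.36e-16). Without background correction the SESN2 changes were -0.72, -0.86 and -0.98, each called, and those of SESN1 0.20, -0.09 and 0.36. SESN2 was called lower with each of the 9 siRNAs, as were 3.23% of all genes. siSUPT6H_Q3, with the smallest CDKN1A rise of its target, gave the largest SESN2 fall of its target (-2.17 against -1.11 with A1 and -1.14 with A3, F test adjusted p = 8.40e-07), and 1 of the 3 Q3 arrays detected it. SESN2 was 0.68 higher in siNeg set 1 than in Untreated (6.20, 6.54 and 5.98, adjusted p = 0.00885).

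**Figure D2:**
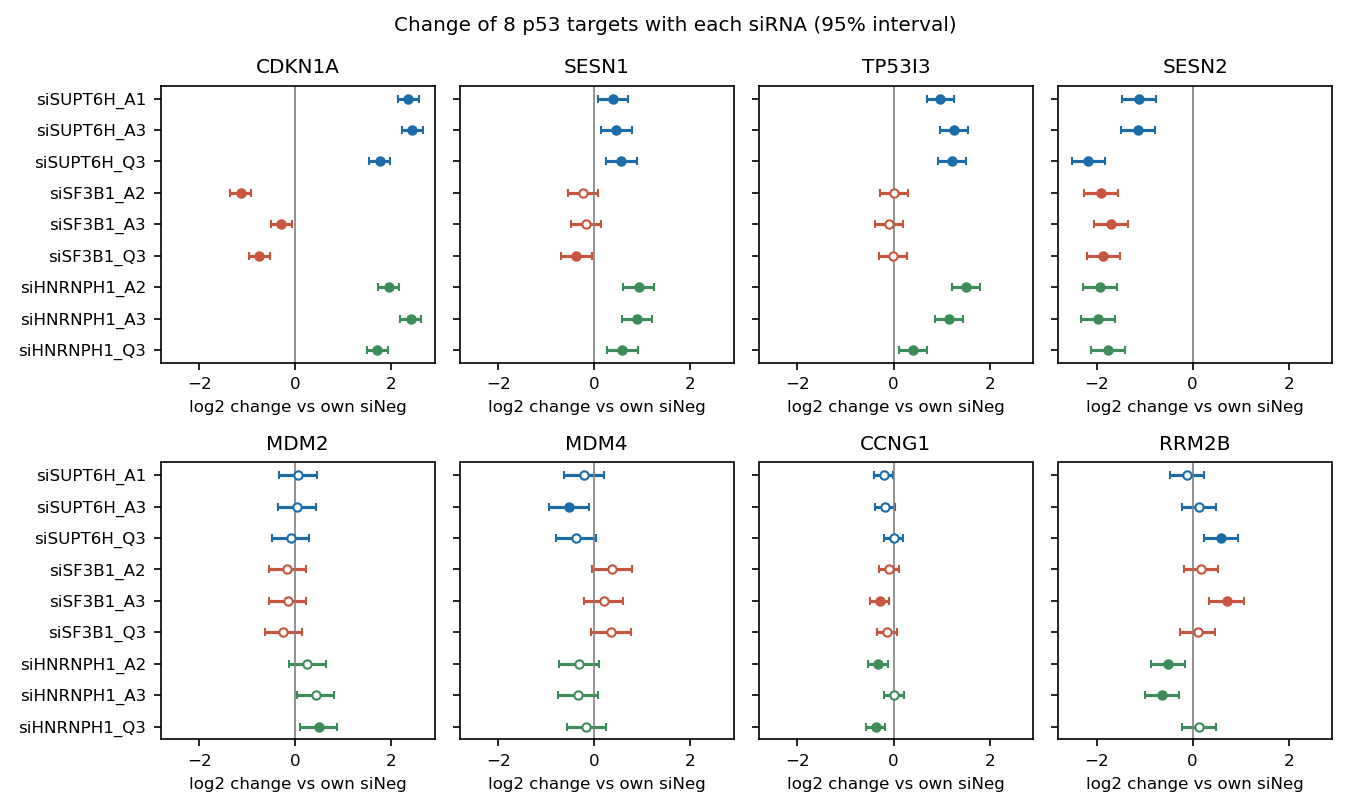
Log2 change of 8 p53 targets with each of the 9 siRNAs against its own siNeg set; points are limma estimates with 95% intervals (3 arrays against 3), filled where the adjusted p was below 0.05. No siNeg array detected TP53I3, so its points are no measure of size. CDKN1A was called with all 9 siRNAs, higher with 6 and lower with 3, SESN2 was called lower with all 9, and the intervals of MDM2, MDM4, CCNG1 and RRM2B mostly cross or lie near 0.

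MDM2 was near background throughout. Its main probe was detected on 10 of 36 arrays and its other probe on 0 of 36. With siSUPT6H the change was 0.00 (95% interval -0.32 to 0.32, limma adjusted p = 0.998), and with siSF3B1, where 0 of 9 arrays detected it, no call was made (adjusted p = 0.303). siNeg set 2 gave 4.72, 4.49 and 4.47, none detected, and siHNRNPH1 gave 5.12, 4.64 and 4.68 (A2), 4.99, 5.11 and 4.86 (A3), and 4.70, 4.88 and 5.58 (Q3), of which 5 were detected. This was at least 1.04-fold higher (adjusted p = 0.0376), and leaving out single arrays gave adjusted p values from 0.0155 to 0.143. The call was lost without siNeg replicate 5 or 6, siHNRNPH1_A2 replicate 1, siHNRNPH1_A3 replicate 2 or siHNRNPH1_Q3 replicate 3. It was also lost in 9 of 14 other settings, among them all 6 siNeg arrays as controls (adjusted p = 0.078), separate normalization of the control sets (0.102) and the authors' log2 values (0.109).

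MDM4, which binds and restrains p53, was not called with any target. Its changes were -0.38 with siSUPT6H (95% interval -0.72 to -0.04, adjusted p = 0.0605), 0.30 with siSF3B1 (-0.04 to 0.64, adjusted p = 0.119) and -0.27 with siHNRNPH1 (-0.61 to 0.07, adjusted p = 0.197). Of the single siRNAs, siSUPT6H_A3 alone gave a call (limma adjusted p = 0.034). No array of that siRNA detected MDM4, which was at least 1.16-fold lower. Between siSF3B1 and siSUPT6H, however, MDM4 differed by 0.68 (SE 0.12, adjusted p = 1.46e-06). Levels were 4.44 to 4.99 with siSUPT6H and 4.87 to 5.79 with siSF3B1, and 3 and 8 of the 9 arrays detected the probe. This difference ran opposite to that of CDKN1A. Against siNeg, leaving out siNeg replicate 2, siSUPT6H_Q3 replicate 2 or Untreated replicate 2 gave a call with siSUPT6H (adjusted p from 0.0412 to 0.0495), leaving out siSF3B1_Q3 replicate 1 gave one with siSF3B1 (0.0334), and leaving out siNeg replicate 5 gave -0.56 with siHNRNPH1 (0.0137). Of 15 other settings, 5 gave a call with siSUPT6H (lower).

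CCNG1, cyclin G1, which recruits a phosphatase to MDM2, was detected on all arrays and changed little. It was -0.13 with siSUPT6H (95% interval -0.29 to 0.04, adjusted p = 0.212) and -0.17 with siSF3B1 (-0.34 to -0.01, adjusted p = 0.0653), the latter called without siNeg replicate 1 (0.0377), siSF3B1_A2 replicate 1 (0.0428) or siSF3B1_A3 replicate 3 (0.0321). CCNG1 was called lower with siSF3B1_A3 by itself (-0.29, limma adjusted p = 0.0137), but not with A2 or Q3. With siHNRNPH1 its levels were 10.10, 10.38 and 10.06 (A2), 10.49, 10.47 and 10.55 (A3), and 9.90, 10.22 and 10.26 (Q3), against 10.66, 10.40 and 10.43 with siNeg set 2. The A3 arrays lay within the control range and the others below it. The change was -0.23 (SE 0.08, adjusted p = 0.0207), and the adjusted p was 0.235 without siNeg replicate 4 and 0.051 without siHNRNPH1_Q3 replicate 1. The call was lost in 4 of 15 other settings. CCNG1 was also 0.45 lower in siNeg set 2 than in set 1 (-0.45, adjusted p = 0.000445), so the control sets differed by more than any target's change.

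RRM2B, a ribonucleotide reductase subunit that supplies nucleotides for DNA repair, gave small changes that its probes did not share. Its main probe, detected on all arrays, gave 0.20 with siSUPT6H (adjusted p = 0.266), 0.33 with siSF3B1 (0.0462) and -0.34 with siHNRNPH1 (0.0493). The other probe gave -0.35 with siSF3B1 (0.0159), the opposite sign, and -0.04 with siHNRNPH1 (0.822). It was detected on 17 of 24 arrays of set 1 and 0 of 12 of set 2. The siSF3B1 call was lost without siNeg replicate 1 or 2 (0.16, adjusted p = 0.44, without the latter), any siSF3B1_A2 array, siSF3B1_A3 replicate 1 or 2, or siSF3B1_Q3 replicate 2 or 3. The siHNRNPH1 call was lost without any siNeg array of set 2 (adjusted p = 0.0658 to 0.18), siHNRNPH1_A2 replicate 3, siHNRNPH1_A3 replicate 1 or 2, or siHNRNPH1_Q3 replicate 3. Other settings changed the siSF3B1 result in 8 of 16 cases and the siHNRNPH1 result in 12 of 15. The siRNAs of each target differed on the main probe (F test adjusted p = 0.00466, 0.0242 and 0.000742 for siSUPT6H, siSF3B1 and siHNRNPH1). Both probes rose with siSUPT6H_Q3 (0.59 and 0.58, adjusted p = 0.00556 and 0.00238), while A1 and A3 were not called. With siSF3B1_A3 the main probe was at 0.70 (adjusted p = 0.00069), while A2 (0.18) and Q3 (0.10) were not called. The other probe was not detected with that siRNA and was at least 1.16-fold lower (adjusted p = 0.00892). With siHNRNPH1 the main probe was lower with A2 (-0.52) and A3 (-0.64), while Q3 (0.13) was not called.

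**Figure D3:**
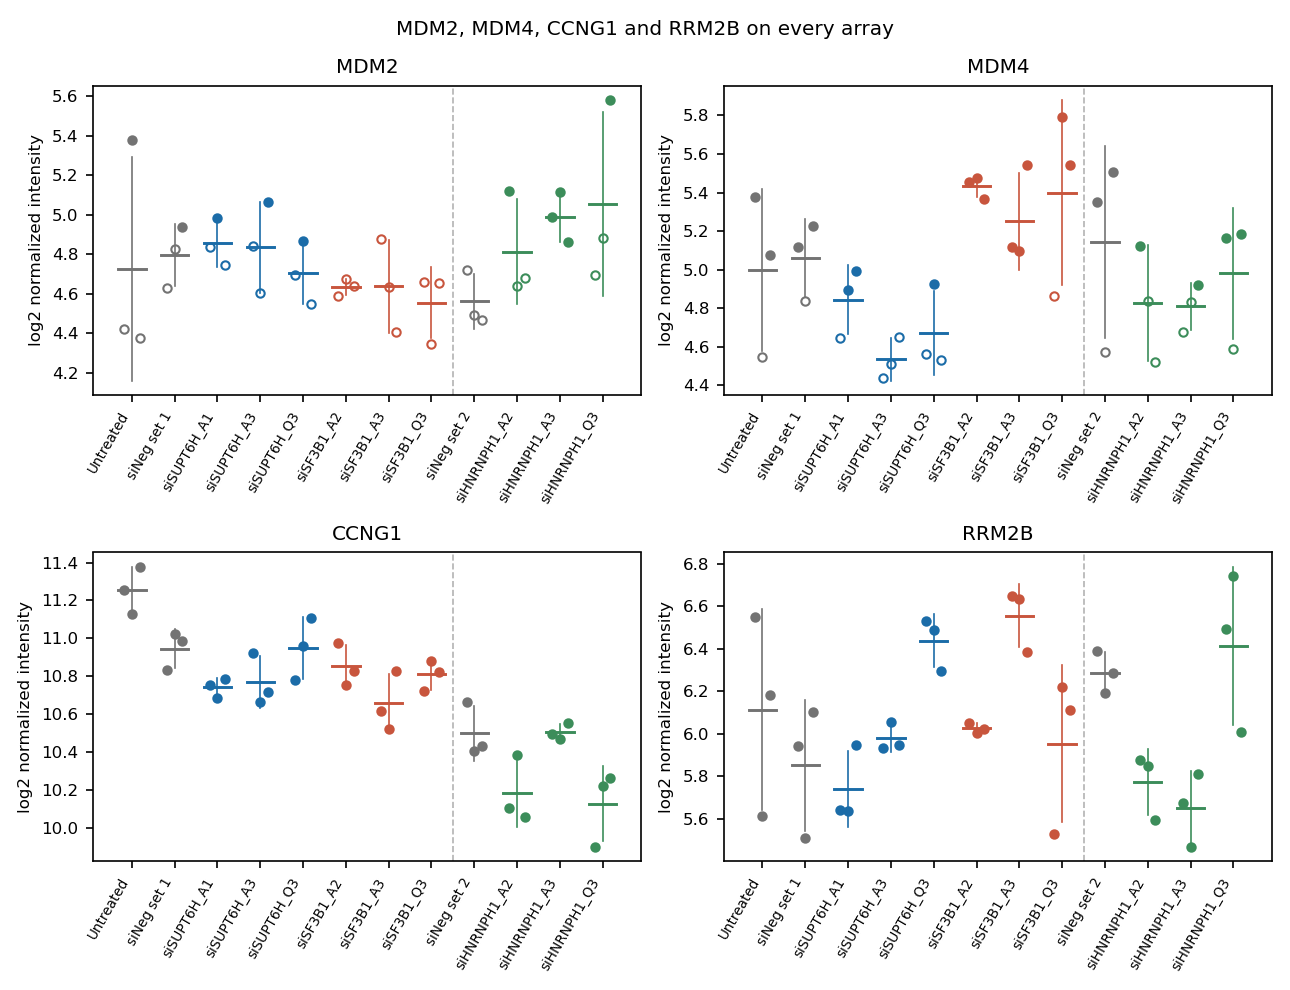
Log2 normalized intensity of MDM2, MDM4, CCNG1 and RRM2B (main probes) on each of the 36 arrays, drawn as in the plot of CDKN1A by array (points are arrays, open where not detected, with group mean and 1 SD, n = 3). Treated and control arrays overlap in most groups, and CCNG1 is lower in siNeg set 2 (10.40 to 10.66) than in set 1 (10.83 to 11.02).

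FAS, a death receptor, could not be followed. Its 1 probe was detected on 0 of 36 arrays, with levels of 4.19 to 4.81, and it was left out of the tests. Without a filter on dim probes its changes were -0.06, 0.01 and 0.03, with adjusted p values of 0.692, 0.933 and 0.87.

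By count, 3 of the 8 tested genes were higher and 1 lower with siSUPT6H, where 25.7% and 21.8% of all genes were called in these directions (47.4% in all). With siSF3B1, 1 was higher and 2 were lower (26.2% and 35.7% of all genes, 61.9% in all), and with siHNRNPH1, 4 were higher and 3 lower (21.6% and 23.5%, 45.1% in all). The median change of the 8 genes was 0.10, -0.18 and 0.08, beside 0.03, -0.06 and -0.02 over all genes. CDKN1A, SESN1 and TP53I3 were each higher with siSUPT6H and siHNRNPH1 and not called higher with siSF3B1, as were 6.18% of all genes. TP53I3 passed the detection filter only through siSUPT6H and siHNRNPH1 arrays, so its place in this count is no independent support. Only CDKN1A of the 8 was also called lower with siSF3B1 (2.59% of all genes), and only SESN2 was lower with all 3 targets (8.21%).

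Between siSF3B1 and siSUPT6H, 4 of the 8 genes were lower and 1 higher, where 73.3% of all genes were called. SESN1 was at -0.73 (SE 0.09, adjusted p = 3.25e-10), and SESN2 at -0.34 (adjusted p = 0.00194) in this comparison, beside CDKN1A and MDM4 above. TP53I3, which no siSF3B1 array detected, was at least 1.42-fold lower (adjusted p = 1.45e-18). Its main probe passed the detection filter only through siSUPT6H and siHNRNPH1 arrays, so this call is no independent support. The second TP53I3 probe was called in the other direction (0.33, limma adjusted p = 0.00556). Between siHNRNPH1 and siSUPT6H, each first set against its own siNeg, only RRM2B was called (-0.54, adjusted p = 0.0381), where 30.3% of all genes were. The difference for SESN1 was 0.32 (95% interval -0.04 to 0.69), which does not show it to be alike, and for TP53I3 no size is given because neither siNeg set detected it. Between siHNRNPH1 and siSF3B1, 4 genes were higher and 2 lower, where 52.4% of all genes were called. CDKN1A was at 2.75, SESN1 at 1.06, MDM4 at -0.57 and RRM2B at -0.67. TP53I3 and MDM2, which no siSF3B1 array detected, were also called higher, with no size given (adjusted p from 6.45e-25 to 0.04 over the 6 genes). The limit from the detection filter holds for this TP53I3 call too, and its second probe was not called (-0.23, limma adjusted p = 0.418).

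Likeness to CDKN1A was described as Pearson's r over the 12 group means, which share targets, controls and arrays and so carry no p. It was 0.93 for SESN1, with 0.49% of the other genes higher, 0.88 for TP53I3 (2.12% higher) and 0.76 for MDM2 (8.86% higher). It was -0.12 for SESN2 (63.3%), -0.28 for RRM2B (70.4%), -0.55 for CCNG1 (84.2%) and -0.84 for MDM4 (98.4%). The MDM2 probe was detected on 10 of 36 arrays, and that of TP53I3 only with siSUPT6H and siHNRNPH1. Over the 8 groups of set 1 alone, r was 0.91 for SESN1, 0.94 for TP53I3 and -0.91 for MDM4. On the authors' normalized values MDM2 fell to 0.29, while SESN1 (0.86), TP53I3 (0.84) and MDM4 (-0.86) moved by less. Of the 28 pairs among the 8 genes, 10 had a positive r and 18 a negative one.

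**Figure D4:**
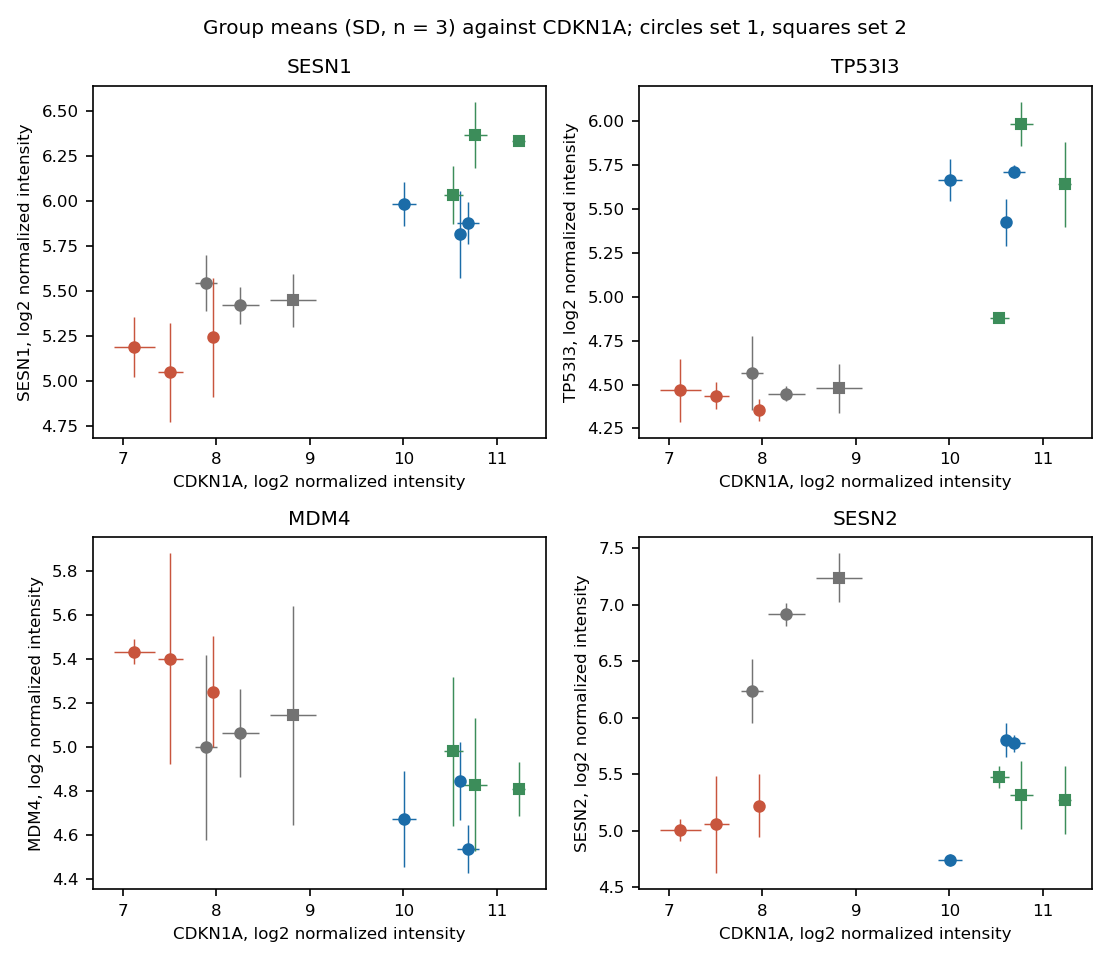
Group means of SESN1, TP53I3, MDM4 and SESN2 against those of CDKN1A, in log2 normalized intensity, with SD over 3 arrays; gray marks controls, blue siSUPT6H, red siSF3B1 and green siHNRNPH1, circles the groups of set 1 and squares those of set 2. SESN1 (r = 0.93) and TP53I3 (r = 0.88) run with CDKN1A, MDM4 runs against it (r = -0.84), and SESN2 is higher in the 3 control groups than in any siRNA group of a target.

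The genes with the highest r to CDKN1A were TRIM55 (0.98), CD248 (0.98), RHOC (0.97), ATP2B4 (0.97) and FHIP2A (0.97), and the lowest were CENPU (-0.97), a kinetochore protein, CCNB1 (-0.96), the mitotic cyclin B1, and DEPDC1 (-0.96). The genes closest to SESN1 were PAPSS2, KIFAP3 and ZHX3 (0.98 to 0.99), to TP53I3 ATP2B1-AS1, H2BC5 and M6PR (0.95 to 0.97), and to SESN2 RAX, PYGB and YARS1 (0.94 to 0.97). MDM4 was closest to DUSP12 (0.98) and to FOXM1 (0.98) and PLK1 (0.97), which act in mitotic entry. MDM2 was closest to TMEM200A, TENT5C and ALDH3A1 (0.90 to 0.92), CCNG1 to YEATS4, PSIP1 and PCDHAC2 (0.94 to 0.95), and RRM2B to ZBTB41, RHPN2 and SLC7A6 (0.82 to 0.87).

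**Figure D5:**
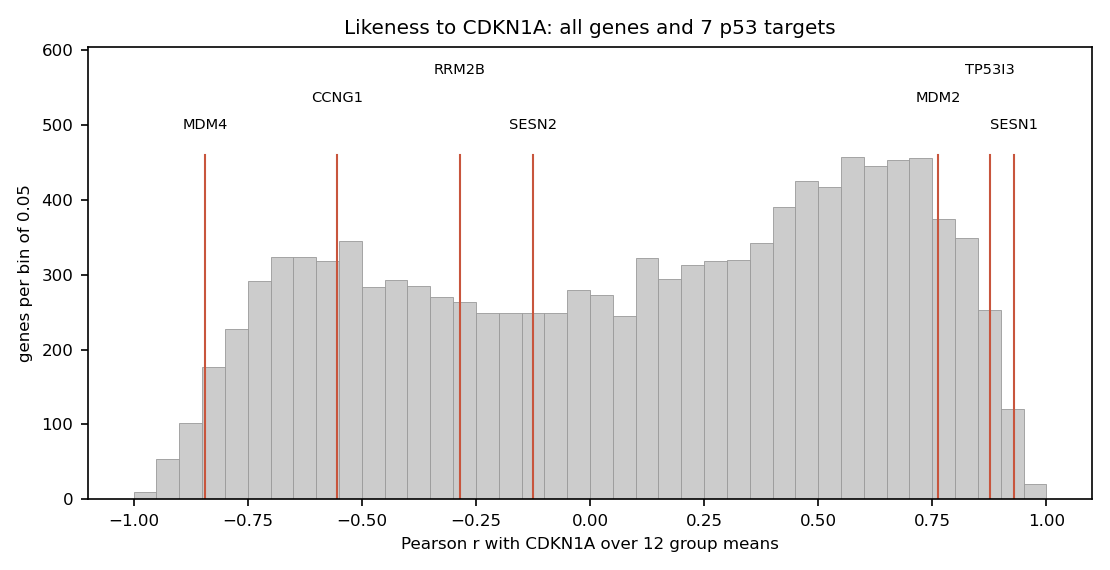
Number of genes per bin of 0.05 in Pearson's r with CDKN1A over 12 group means (gray bars, 11436 genes), with red lines for 7 other p53 targets. SESN1 (0.93), TP53I3 (0.88) and MDM2 (0.76) lie on the right and MDM4 (-0.84) and CCNG1 (-0.55) on the left.

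A wider list of 43 other p53 target genes, 35 of them measured, was split in direction. With siSUPT6H 15 were higher and 11 lower (42.9% and 31.4%, against 25.7% and 21.8% of all genes). With siSF3B1 15 were higher and 12 lower (42.9% and 34.3%, against 26.2% and 35.7%), and with siHNRNPH1 11 and 9 (31.4% and 25.7%, against 21.6% and 23.5%). The median changes were 0.16, 0.10 and 0.02. Beside 2.59% of all genes, 3 of the 35 followed the directions of CDKN1A with all 3 targets. These were TP53INP1, a p53 cofactor (1.10, -0.42 and 1.07 with siSUPT6H, siSF3B1 and siHNRNPH1), BAX, which permeabilizes mitochondria in apoptosis (0.34, -0.24 and 0.27), and RPS27L, a ribosomal protein paralogue (0.26, -0.25 and 0.37), each called in all 3. They were singled out after their values had been seen. Median r with CDKN1A was -0.07 over the 35 genes and 0.15 over all genes.

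Higher with all 3 targets, as 5.37% of all genes were, were 5 genes of the list. They were APAF1, a core of the apoptosome, DRAM1, a lysosomal autophagy protein, FUCA1, a lysosomal fucosidase, STEAP3, a metalloreductase, and ZMAT3, an RNA-binding protein. Among the list's largest changes, DRAM1 was at 1.54 with siHNRNPH1 and FUCA1 at 1.30 with siSUPT6H. GDF15, a secreted stress cytokine, PTP4A1 and TNFRSF10B, a death receptor, were lower with all 3, a share of 8.57% beside 8.21% of all genes. GDF15 was not detected with siSUPT6H, where it was at least 9.55-fold lower, and was at -3.43 with siSF3B1, where 2 of 9 arrays detected it, and at -2.09 with siHNRNPH1 (adjusted p = 3.92e-26, 4.10e-25 and 2.30e-16). TNFRSF10B was at -0.78, -1.01 and -0.86. With siSF3B1, BLOC1S2, a subunit of a lysosome biogenesis complex, was higher (1.36), and XPC, which recognizes damaged DNA for nucleotide excision repair, was lower (-1.35). PMAIP1 (NOXA), a pro-apoptotic BH3-only protein, was at -1.34 with siSUPT6H and -1.10 with siHNRNPH1, both called, and at 0.10 with siSF3B1 (adjusted p = 0.444), not called. For PMAIP1, siNeg set 2 minus set 1 was -1.54 (limma adjusted p = 9.74e-14). BBC3 (PUMA), another BH3-only protein, was at -0.04, 0.27 and 0.12 and was not called.

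Among p53 regulators, 23 of 28 were measured. With siSUPT6H 2 were higher and 10 lower (8.7% and 43.5%, against 25.7% and 21.8% of all genes). With siSF3B1 6 were higher and 6 lower (26.1% each, against 26.2% and 35.7%), and with siHNRNPH1 3 and 7 (13% and 30.4%, against 21.6% and 23.5%). CHEK1, a DNA damage checkpoint kinase, was lower with siSUPT6H (-1.01, adjusted p = 9.64e-14) and siHNRNPH1 (-0.65) and higher with siSF3B1 (1.14), the reverse of CDKN1A. HIPK2, a kinase of p53, was lower with all 3 (-0.69, -0.40 and -0.40). PRMT5, an arginine methyltransferase, was at -0.92 and CREBBP, an acetyltransferase, at -0.65 with siSUPT6H. With siSF3B1, CHEK2, another checkpoint kinase, was higher (0.78), and TP53BP1, a DNA repair protein, and ATM, the kinase that responds to DNA breaks, were lower (-0.70 and -0.64). RPL23, a ribosomal protein that binds MDM2, was at 0.55 and YY1, a zinc finger transcription factor, at 0.37 with siHNRNPH1, both called. For RPL23, siNeg set 2 minus set 1 was -2.11 (limma adjusted p = 4.99e-23), so the control sets differed by more than its siHNRNPH1 change.

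Of 22 CDK inhibitors, cyclins and their partners, 19 were measured, and 4 were higher and 7 lower with siSUPT6H (21.1% and 36.8%, against 25.7% and 21.8% of all genes). With siSF3B1 8 were higher and 5 lower (42.1% and 26.3%, against 26.2% and 35.7%), and with siHNRNPH1 5 and 9 (26.3% and 47.4%, against 21.6% and 23.5%). The mitotic partners CCNB1 and CDK1 were lower with siSUPT6H (-1.17 and -1.04) and siHNRNPH1 (-0.35 and -0.42) and higher with siSF3B1 (0.36 and 0.38). Between the control sets they differed by more than with siHNRNPH1 (siNeg set 2 minus set 1, -1.03 and -0.66, both called). CCNA2, cyclin A2, was lower with siSUPT6H (-0.58) and higher with siSF3B1 (0.25). CCNE1, cyclin E1, was at -1.08 with siHNRNPH1 and -0.75 with siSF3B1, both called. CDK6, a kinase of the D-type cyclins, and CDKN1C (p57), a relative of p21, were higher with siHNRNPH1 (1.13 and 1.01). RBL2, a relative of the retinoblastoma protein, was lower with all 3 (-0.32, -1.14 and -0.24). CDK2, a kinase that p21 inhibits, was at -0.33 with siSUPT6H and 0.79 with siSF3B1, both called, and at -0.11 with siHNRNPH1, not called. CCND3 was higher with all 3 (0.97, 1.83 and 0.82). CDKN1B (p27), a relative of p21, was at 0.00 with siSUPT6H (adjusted p = 0.993) and was higher by 0.27 and 0.30 with siSF3B1 and siHNRNPH1.

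SESN2 is also a known target of ATF4, the transcription factor of the integrated stress response. All 18 genes on a separate list, made of ATF4 and its target genes, were measured. With siSUPT6H, siSF3B1 and siHNRNPH1, 18, 17 and 18 of them were lower and none higher, against 21.8%, 35.7% and 23.5% of all genes. The median change was -2.33, -2.07 and -2.01, and that of SESN2 was -1.48, -1.82 and -1.89. ATF4 itself, which is counted in that list, was at -2.11, -1.14 and -1.84, each called. TRIB3, a pseudokinase that ATF4 induces, was at -3.99 with siSUPT6H and -3.63 with siHNRNPH1, and PCK2, a mitochondrial enzyme of gluconeogenesis, at -3.78, -3.74 and -3.61. ASNS, asparagine synthetase, was at -3.48, -3.33 and -3.32, CTH, an enzyme of cysteine synthesis, at -2.95, -3.55 and -3.50, and ATF5, another transcription factor of this response, at -3.26, -3.68 and -3.40. DDIT3 (CHOP) was at -3.78 with siSUPT6H and -2.87 with siHNRNPH1 but at -0.55 with siSF3B1, each called. The part of ATF4 in the SESN2 change was not tested.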

How the data were processed

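The signal table held, per the file headers, an average bead intensity and a detection p-value for 47323 probes on each of 36 arrays, as exported from GenomeStudio per the submitters' processing notes. The authors deposited a second table of log2 values for 47231 probes, normalized by a method not given in the sources used here (R 3.0.2 and lumi are named). Columns were matched to samples by name. For Untreated, the column names were those remaining after all other groups were matched.

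Intensities were background-corrected and quantile-normalized with neqc (limma 3.58.1, R 4.3.3), which reads the background from the detection p-values. Probes with a detection p below 0.01 on at least 3 arrays were kept (19738), and the probe with the highest mean stood for a gene. One model with 12 groups (24 residual degrees of freedom) was fitted with eBayes and an intensity trend. Tests were two-sided, with Benjamini-Hochberg adjustment over 11437 genes. Second probes were tested in the same model over all kept probes. The number of arrays limits the precision.

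An "at least" fold sets the brighter mean over all its arrays against the dim arrays' lowest detected signal. The members and gene lists were chosen with earlier results of these data known. Members were named whatever their result, and from each p53, CDK and ATF4 list the 4 largest called changes per target. BAX, RPS27L, BBC3, CDKN1B, ATF4, PTP4A1, APAF1, STEAP3 and ZMAT3 fall outside that rule and were added after their values had been seen. Replicate numbers were not used to pair samples in the main model. The deviations of same-numbered arrays correlated at a median of 0.01 in set 1, with 10 of 84 pairs over 0.1 and the highest at 0.27. Such values cannot exclude a pairing, and the labels do not settle it. The procedure was tested on simulated data. Alternatives are given in the closing section.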

Additional observations from a re-analysis of the deposited data

How the results depend on the processing

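Of 800 values under alternatives for 34 results, 706 were scored as unchanged and 94 as changed. A change in level was unchanged if it stayed on its side of the threshold and, where called, kept its direction. One that was called in neither setting could therefore switch sign and still count as unchanged. Counts of called genes and values of r have no such threshold and were scored by how far they moved, r also by its sign. CDKN1A kept direction and call with siSUPT6H (1.23 to 2.55) and siHNRNPH1 (1.09 to 2.31) in every alternative, and SESN2 with all 3 targets. CDKN1A with siSF3B1 ranged from -1.01 to -0.35 and lost its call when siRNA means were the replicates (-0.72, adjusted p = 0.134), a setting with fewer samples in which the lone control mean is assumed to vary like the siRNAs. Leaving out single arrays gave CDKN1A changes of 2.07 to 2.27, -0.83 to -0.64 and 1.88 to 2.11. Counts of called genes were 5424, 7082 and 5160 and fell to 2054, 4063 and 1622 with siRNA as a random block (consensus correlation 0.451) and to 1036, 3206 and 716 with siRNA means. Leaving out single arrays gave 4751 to 5493, 6462 to 7118 and 4441 to 5154. RRM2B with siSF3B1 was -0.012 as the mean of its probes, the reverse of 0.33. Over the 8 groups of set 1, r with CDKN1A was 0.050 for SESN2 (reversed), -0.24 for CCNG1 and -0.15 for RRM2B, and on the authors' values 0.29 for MDM2, -0.30 for SESN2, -0.40 for CCNG1 and -0.42 for RRM2B. The cause of these shifts was not tested. Whether same-numbered arrays share more than a label is not known. The replicate block ended 1 call (RRM2B with siHNRNPH1, -0.34, adjusted p = 0.0527), gave 5494, 7128 and 5219 called genes and left CDKN1A at 2.18, -0.72 and 2.02. Leaving out an siRNA was chosen after the data had been seen. Signals of MDM2, MDM4, TP53I3 and FAS, and of SESN2 with siSF3B1 and siSUPT6H_Q3, lay near background, which limits what can be read from them.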
